A study of Homo sapiens with 6 samples.

Results

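Genes for antimicrobial and antiprotease proteins that epithelia secrete were followed on Clariom D arrays of total RNA from a fluvastatin-sensitive and a fluvastatin-resistant human breast epithelial line. The 10 genes were taken by symbol: LCN2, RNASE7, DEFB1, LTF, LYZ and CAMP for the antimicrobial proteins, and SLPI, PI3, WFDC2 and SPINK5 for the inhibitors of proteases. Each is carried by 1 probe set, among 135750 transcript probe sets with 81496 gene symbols in all. MCF10.AT1 is a preneoplastic line of the MCF10A series that carries an activated HRAS, and its samples are labelled untreated (arrays A01, A02 and A03). MCF10.AT1-R is the single line selected from it in fluvastatin, an inhibitor of HMG-CoA reductase, at doses of 1 µM and 5 µM rising to 20 µM (arrays B02, B03 and B04). Both lines were grown in MCF10.AT1 medium, which holds horse serum, EGF, hydrocortisone and insulin. Whether fluvastatin was present when the MCF10.AT1-R cells were harvested is not stated. The labels call the samples biological replicates, and with 1 selected line the spread between arrays does not cover the spread between independent selections.

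Secreted antimicrobial proteins protect an epithelial surface in several ways. Some bind iron or its carriers, some cut the bacterial wall, and small cationic peptides and ribonucleases damage bacterial membranes. Antiproteases of the same secretions restrain serine proteases, either those released by neutrophils or the kallikreins of stratified epithelia. Many of these genes are induced by interleukin-1, interleukin-17 and NF-kappaB signalling, and in the breast several reach milk, which is rich in lactoferrin and lysozyme.

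All values are on the log2 scale of the deposited RMA table, and a log2 change is the mean of MCF10.AT1-R minus the mean of MCF10.AT1. The comparison used A01 and A02 against B02, B03 and B04. The array names do not state the line, and the letters A and B were assigned to the lines as given with the processing. A03, the array that the study removed, correlated with the other 5 arrays at 0.779 to 0.795 over transcript probe sets, against 0.967 to 0.977 among those 5, and its values are given apart. Probe sets were tested when their mean and their SD over the 5 arrays passed the limits given with the processing, which 7 of the 10 genes did, and DEFB1, LYZ and CAMP did not. The 95th percentile of 612 negative control probe sets lay between 2.88 and 3.14 on the 5 arrays and served as the level of background.

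Of the 10 genes, LCN2, PI3 and SLPI rose in MCF10.AT1-R past an FDR of 5% in limma, where 0.758% of all tested probe sets were called higher. No gene of the 10 was called lower in limma (0.447% of tested probe sets were). In limma without a filter, which covers all 10, 5 had a positive change with an unadjusted p under 0.05 (3.27% of all transcript probe sets) and 0 a negative one (3.42%). On simulated data the filtered fit made more false calls than its FDR of 5% allows, so its small p-values are given beside those of stricter fits. WFDC2, DEFB1 and LYZ did not pass, although their arrays did not overlap between the lines. In all, 6 of the 10 had every MCF10.AT1-R array above both MCF10.AT1 arrays, an order found for 12.2% of all transcript probe sets, and none had every array below them (11.1%). The fitted log2 change was positive for 8 of the 10. Its median over the 10 was 0.71, against 0.01 over all transcript probe sets without a filter. The 10 genes were chosen with earlier results of these data known, so these counts are a description. They include genes that lay within the negative controls on all 5 arrays, where a difference is not detectable. LYZ is in the counts of 5, 6 and 8, DEFB1 in those of 6 and 8, and SPINK5 in that of 8.

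**Figure D1:**
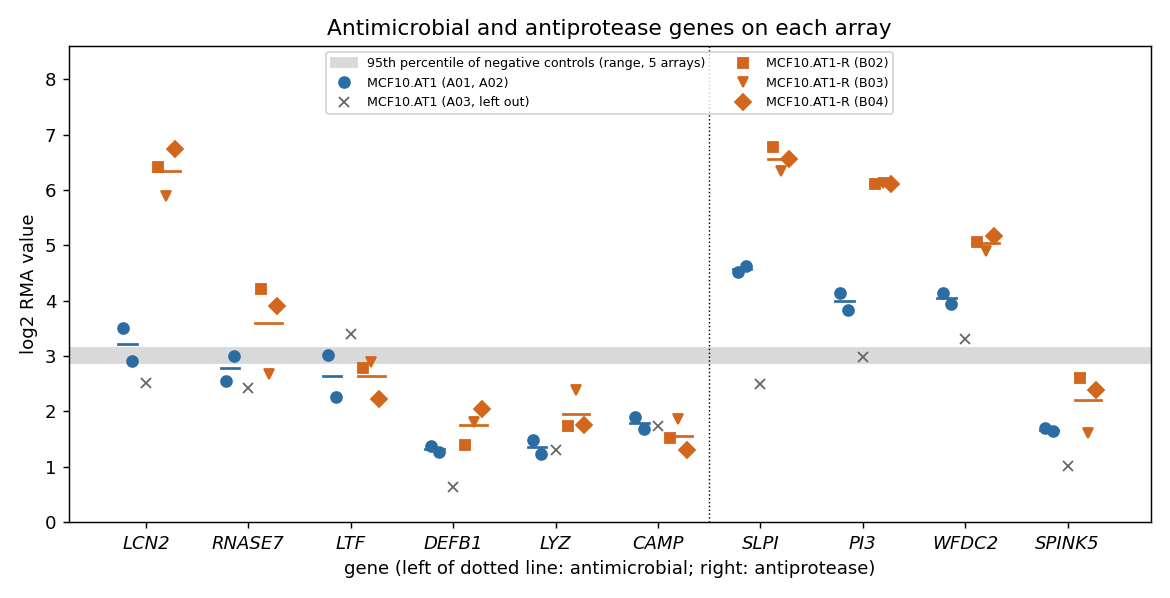
Log2 RMA value (vertical axis) of each of the 10 genes (horizontal axis) on every array; points are arrays, short lines are the means of A01 and A02 and of B02, B03 and B04, crosses are A03, and the grey band spans the 95th percentile of the negative controls on the 5 arrays (2.88 to 3.14). LCN2, SLPI, PI3 and WFDC2 are above the band in MCF10.AT1-R and separate from MCF10.AT1, while LTF, DEFB1, LYZ, CAMP and SPINK5 stay within background on the 5 arrays; the cross of LTF, at 3.41, lies above the band.

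Among the antimicrobial genes, LCN2 had the largest change of the 10. It encodes lipocalin-2, a secreted protein that withholds iron from bacteria by binding their siderophores, and that was first known from neutrophil granules. LCN2 (probe set TC0900008847.hg.1) read 3.51 on A01 and 2.92 on A02, and 6.41, 5.89 and 6.73 on B02, B03 and B04. The lines were therefore far apart, with the lowest MCF10.AT1-R array 2.38 above the highest MCF10.AT1 array. The means were 3.21 ± 0.42 (SD, n = 2) and 6.35 ± 0.42 (SD, n = 3). This made a difference of 3.13 on the log2 scale (standard error 0.31), or 8.78-fold (limma adjusted p = 2.08e-20). Only 19 of the 51457 tested probe sets had a higher fitted change. In MCF10.AT1 the gene was near background, since A02 lay within the negative controls. With values under background raised to it the change was 3.10 (limma adjusted p = 0.0416).

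Sequence upstream of the transcription start was available in the RefSeq promoter table (GRCh38.p14) for 6 of the 10 genes: LCN2, RNASE7, LTF, CAMP, WFDC2 and SPINK5. The 250 bases before the start are printed for LCN2, which rose, for WFDC2, whose arrays separated without passing the threshold, and for RNASE7, whose MCF10.AT1-R arrays differed among themselves. LCN2 lies at chr9:128149203-128149452, WFDC2 at chr20:45469503-45469752 and RNASE7 at chr14:21042112-21042361, all on the plus strand. Capitals mark matches to 4 motifs, searched on both strands. The NF-kappaB type motif was GGGA and CC with any 4 bases between them. AP-1 type sites were searched as TGANTCA and C/EBP type sites as TTGCNNAA, where N is any base. The TATA box was searched as TATAAA.
LCN2: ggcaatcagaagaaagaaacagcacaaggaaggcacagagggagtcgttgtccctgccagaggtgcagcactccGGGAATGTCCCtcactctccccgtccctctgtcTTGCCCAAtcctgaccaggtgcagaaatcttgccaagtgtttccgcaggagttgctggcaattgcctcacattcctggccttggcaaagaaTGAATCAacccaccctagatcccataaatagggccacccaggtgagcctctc
WFDC2: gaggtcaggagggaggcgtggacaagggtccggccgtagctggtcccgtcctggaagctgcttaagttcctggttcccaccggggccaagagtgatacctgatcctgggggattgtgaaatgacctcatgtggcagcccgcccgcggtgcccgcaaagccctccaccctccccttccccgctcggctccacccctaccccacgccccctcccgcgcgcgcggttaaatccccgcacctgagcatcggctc
RNASE7: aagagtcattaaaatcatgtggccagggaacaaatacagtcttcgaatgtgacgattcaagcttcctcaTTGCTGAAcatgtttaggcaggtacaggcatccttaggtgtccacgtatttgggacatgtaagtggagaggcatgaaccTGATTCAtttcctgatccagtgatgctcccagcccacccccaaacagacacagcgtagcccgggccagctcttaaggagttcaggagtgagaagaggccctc

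The LCN2 window held matches to the NF-kappaB type motif on each strand, which overlap and begin 176 and 175 bases before the start. It also held TTGCCCAA, beginning 143 bases before it, and TGAATCA, beginning 52 bases before it. RNASE7 had an AP-1 type and a C/EBP type match, and the WFDC2 window held none of the 4 motifs. Of the genes not printed, LTF and SPINK5, both within background, also had an NF-kappaB type match. LTF had a C/EBP type match in another of its 3 windows, SPINK5 had TATA box matches, and CAMP had none of the 4 motifs. Over 35114 windows of this length in the table, 22.6% held the NF-kappaB type motif and 6.57% the AP-1 type. The C/EBP type was held by 9.05% and the TATA box by 10.7%. A match is a description of the letters and was not tested as a site.

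RNASE7, a ribonuclease of skin and urinary epithelium that kills bacteria, differed among the MCF10.AT1-R arrays. It read 2.54 and 3.01 on A01 and A02, and 4.21, 2.68 and 3.90 on B02, B03 and B04. B02 and B04 lay above both MCF10.AT1 arrays, and B03 lay between them, within the negative controls as both MCF10.AT1 arrays were. The fit gave 0.82 on the log2 scale (95% interval 0.21 to 1.43), which missed the threshold (limma adjusted p = 0.284). That interval rests on an SD of 0.34 that limma shared over all tested probe sets, while the gene's own SD was 0.69. In stricter limma fits the adjusted p was 0.659 (low-expression filter alone) and 0.779 (no filter). Without B03 the filtered fit gave 1.28 (limma adjusted p = 0.0128). B03 was also the lowest MCF10.AT1-R array for LCN2, SLPI, WFDC2 and SPINK5. Among the 390 probe sets called higher, B03 was the lowest of the 3 arrays for 205 (52.6%).

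The remaining antimicrobial genes were not measured above background on any of the 5 arrays. LTF encodes lactoferrin, the iron-binding protein of milk and neutrophils. It read 3.03 and 2.27 on A01 and A02, and 2.78, 2.90 and 2.23 on B02, B03 and B04. The lines overlapped, with a log2 change of -0.01 and a 95% interval of -0.62 to 0.60. LYZ, the lysozyme that cuts the bacterial wall, read 1.49 and 1.24 in MCF10.AT1 and 1.74, 2.39 and 1.76 in MCF10.AT1-R. Its arrays separated, but all 5 were within the negative controls, as were those of DEFB1 and CAMP. DEFB1, the constitutive epithelial beta-defensin, ranged from 1.28 to 1.37 in MCF10.AT1 and from 1.39 to 2.04 in MCF10.AT1-R. CAMP, the cathelicidin precursor of the peptide LL-37, ranged from 1.69 to 1.91 and from 1.30 to 1.87. In limma without a filter the adjusted p was 0.731 for LYZ, 0.798 for DEFB1 and 0.893 for CAMP. Since these genes stayed within background, a difference in them was not detectable on these arrays.

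The antiproteases PI3 and SLPI rose to a similar extent. PI3 encodes elafin, which inhibits neutrophil elastase and proteinase 3 and is anchored to other proteins by transglutaminase. PI3 (TC2000007479.hg.1) read 4.13 and 3.84 on A01 and A02, and 6.10, 6.13 and 6.11 on B02, B03 and B04. The MCF10.AT1-R arrays were nearly equal, and all lay well above MCF10.AT1. It rose 4.36-fold, by 2.13 on the log2 scale (standard error 0.31, limma adjusted p = 6.05e-09). SLPI, the secretory leukocyte protease inhibitor, acts on neutrophil elastase and cathepsin G and also has antimicrobial activity. SLPI (TC2000009216.hg.1) read 4.52 and 4.63 on A01 and A02, and 6.77, 6.34 and 6.56 on B02, B03 and B04. Its lowest MCF10.AT1-R array was 1.71 above its highest MCF10.AT1 array. It rose 3.95-fold, by 1.98 on the log2 scale (standard error 0.31, limma adjusted p = 1.12e-07).

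The standard error of 0.31 is the same for every tested probe set, because after the filter limma estimated 1 common SD of 0.34. That estimate is lenient for genes whose own arrays vary more, and the own SD was 0.42 for LCN2, 0.18 for SLPI and 0.12 for PI3. When only low expression was filtered, so that the estimate drew on each gene's own spread, 0.217% of probe sets were called higher. The 3 genes still passed there, with limma adjusted p of 0.0123 for LCN2, 0.0139 for SLPI and 0.00718 for PI3. They passed also without any filter, where 0.105% of probe sets were called higher.

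WFDC2 encodes HE4, a secreted protein with the same WAP-type fold as elafin and SLPI and known as a marker of ovarian cancer. It read 4.14 and 3.95 on A01 and A02, and 5.06, 4.90 and 5.16 on B02, B03 and B04. The arrays were separate by 0.76, and the change of 1.00 (standard error 0.31, 2.00-fold) had an adjusted p of 0.0856 from limma. Its own SD of 0.13 was below the common SD, and when limma let the variance depend on expression (the trend option), which called 1.69% of probe sets higher, it passed (adjusted p = 0.0173). It passed also with that option and only the low-expression filter (adjusted p = 0.0199), where 1.13% were called higher. WFDC2 did not pass in the stricter limma fits, with the low-expression filter alone (adjusted p = 0.140) or without any filter (adjusted p = 0.200). SPINK5 encodes LEKTI, the inhibitor of the kallikreins KLK5 and KLK7 in skin. It read 1.70 and 1.64 in MCF10.AT1 and 2.60, 1.61 and 2.40 in MCF10.AT1-R. B03 lay below both MCF10.AT1 arrays, and all 5 arrays were within the negative controls. Its log2 change of 0.53 had an adjusted p of 0.702 from limma and a 95% interval of -0.08 to 1.14.

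**Figure D2:**
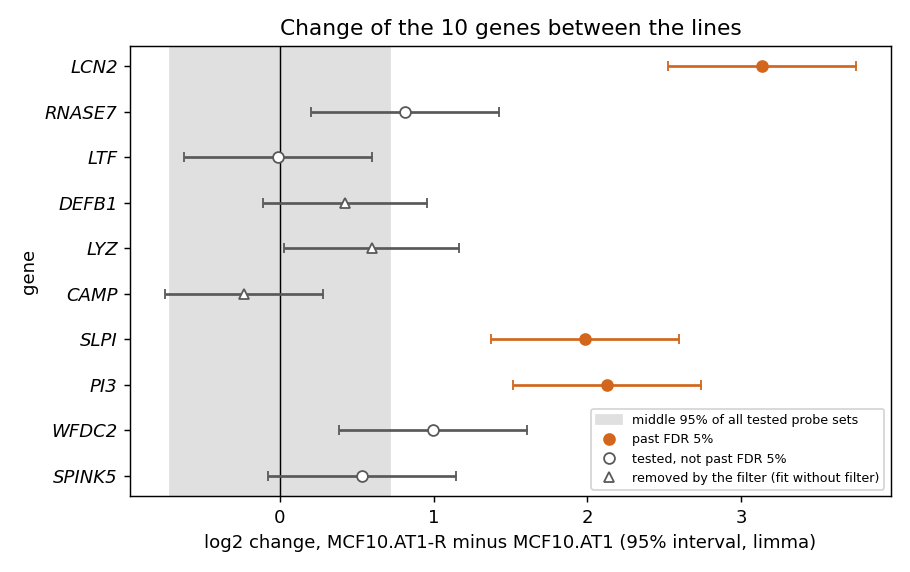
Log2 change of each of the 10 genes, MCF10.AT1-R minus MCF10.AT1 (horizontal axis), with its 95% interval from limma; filled points passed FDR 5%, open circles were tested and did not pass, and triangles were removed by the filter and come from the fit without it. The grey band holds the middle 95% of all tested probe sets (-0.71 to 0.72), and LCN2, PI3 and SLPI lie beyond it with their whole intervals.

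On A03 the genes read low. LCN2 read 2.52, SLPI 2.49, PI3 2.98 and WFDC2 3.30, each below every one of the other 5 arrays. Of the 10 genes, 7 had their lowest value on A03, and 8 lay within the negative controls of A03. Among the 8, DEFB1, LYZ, CAMP and SPINK5 were within the negative controls on the other 5 arrays too. The share over all probe sets was not counted, and low values on A03 were not particular to these genes. The mean level of the 8 basal markers described below was 3.54 on A03, against 6.88 on A01 and 6.77 on A02. Other genes read higher there, such as MATN4 (6.12, against 4.44 on A01 and 5.03 on A02). With A03 counted as MCF10.AT1, only LCN2 passed in limma over 6 arrays (log2 change 3.36, adjusted p = 0.0435). The changes of SLPI (2.68, adjusted p = 0.626) and PI3 (2.46, adjusted p = 0.149) were larger than without A03 and did not pass.

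PI3, SLPI and WFDC2 are neighbours on chromosome 20, in a cluster of WAP-type inhibitor and semenogelin genes. In the RefSeq gene order (GRCh38.p14) 2 protein-coding genes lie between PI3 and SLPI, and 7 between SLPI and WFDC2. The window from 5 genes before PI3 to 5 genes after WFDC2 held 19 other protein-coding genes, all matched to a probe set. Of these, 10 were within the negative controls on all 5 arrays, among them the semenogelin genes SEMG1 and SEMG2, which lie between PI3 and SLPI. None of the 10 other genes that were tested passed an FDR of 5% in limma, and none had an unadjusted p under 0.05. Their log2 changes, untested genes included, ran from -0.42 for STK4 to 0.39 for RBPJL. WFDC3, another WAP-type gene of chromosome 20, lies outside this window. Its arrays separated, with a log2 change of 0.86 that did not pass (limma adjusted p = 0.230). WFDC3 passed with the trend option (limma adjusted p = 0.0105) and did not with the low-expression filter alone (0.260). Between PI3 and WFDC2, the heparan sulfate proteoglycan gene SDC4 had means of 7.59 (MCF10.AT1) and 7.67 (MCF10.AT1-R).

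**Figure D3:**
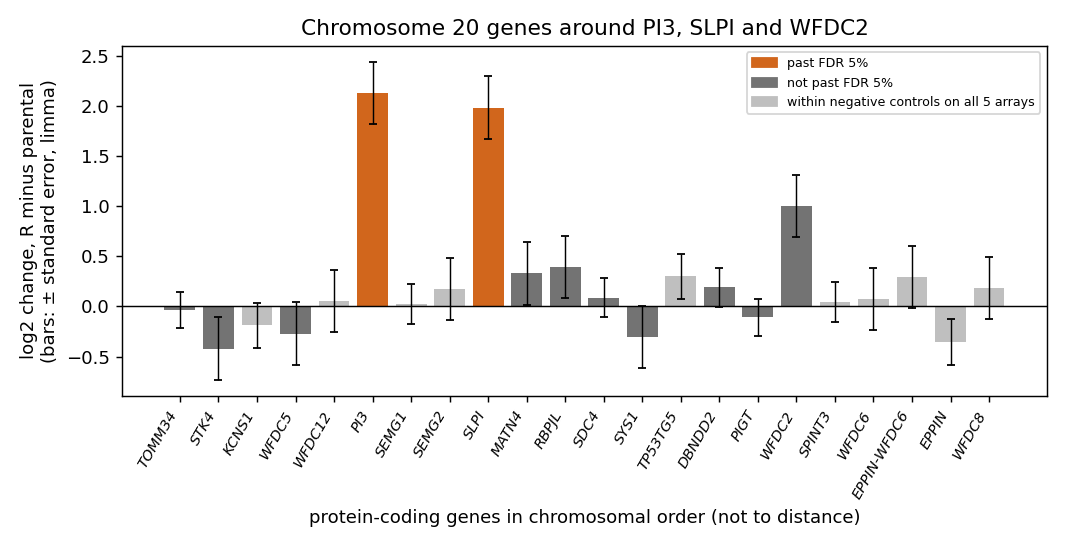
Log2 change, MCF10.AT1-R minus MCF10.AT1 (vertical axis, bars with standard errors from limma), of protein-coding genes in their order on chromosome 20 (horizontal axis, not to distance). PI3 at 2.13 and SLPI at 1.98 passed FDR 5%, WFDC2 stood at 1.00, and the 19 other genes lay between -0.42 and 0.39, with pale bars for genes that never left background.

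Genes that belong with these proteins were grouped in 5 lists of 95 genes in all, chosen with earlier results of these data known. The counts therefore describe the lists and are not a test of them. Over the lists, 68 genes were tested, and 12 were called higher and 1 lower in limma. Over all tested probe sets 0.758% were called higher and 0.447% lower. The median log2 change was 0.30, against -0.01 over all tested probe sets. With the low-expression filter alone, 7 list genes were called higher and 0 lower. Among other antimicrobial genes, 1 of 18 tested was called higher and 1 lower. S100A8, a subunit of the metal-binding protein calprotectin, read 2.08 and 1.43 on A01 and A02, and 4.71, 4.19 and 5.02 on B02, B03 and B04. Both MCF10.AT1 arrays were within the negative controls, so the fitted log2 change of 2.89 (adjusted p = 3.16e-17 from limma) rests on background, and against background the gene was at least 3.13-fold higher, without passing (adjusted p = 0.107 from limma with values raised to background). Its partner S100A9 averaged 2.60 and 3.35 in the 2 lines without passing (limma adjusted p = 0.381). CCL20, a chemokine with antimicrobial activity, fell by 1.14 on the log2 scale (adjusted p = 0.0252 from limma). It no longer passed without A01 (adjusted p = 0.283), A02 (0.419), B02 (0.0675) or B03 (0.181).

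Among other antiproteases, 5 of 12 tested genes were called higher. The list held 21 genes, and its median log2 change was 0.85 over the tested genes and 0.24 over all listed. CST6, the cystatin E/M of skin that inhibits cysteine cathepsins, read 5.89 and 6.05 on A01 and A02, and 7.95, 8.04 and 8.33 on B02, B03 and B04, so that the lines were well apart. The limma fit gave it a log2 change of 2.14 with an adjusted p of 4.97e-09. CSTA, a cystatin of the cornified layer, changed by 1.76, and A2ML1, an alpha-2-macroglobulin-like inhibitor of keratinocytes, also by 1.76. Both MCF10.AT1 arrays of A2ML1 were within background, against which it was at least 2.89-fold higher, without passing (limma adjusted p = 0.115). SERPINB1, an inhibitor of neutrophil proteases, changed by 1.28, and SPINT1, the inhibitor of the membrane protease matriptase, by 1.21. SPINT1 was named after its value was seen. CST6 and CSTA still passed with the low-expression filter alone, and A2ML1 (adjusted p = 0.0683), SERPINB1 (0.059) and SPINT1 (0.0731) did not.

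Proteases that such inhibitors act on were called higher for 4 of 12 tested. KLK7 changed by 4.64, KLK5 by 4.11 and KLK6 by 2.45, and all 3 are secreted kallikreins of squamous epithelium. PRSS8, the membrane protease prostasin, changed by 1.36 and did not pass with the low-expression filter alone (adjusted p = 0.204). The matriptase gene ST14 averaged 7.71 and then 8.63 in MCF10.AT1-R (limma adjusted p = 0.157). The neutrophil protease genes ELANE and CTSG, whose products SLPI inhibits, were not called.

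Of the inducers and regulators, 2 of 19 tested genes were called higher. IL1A, an interleukin-1 cytokine of epithelial cells, read 3.68 and 3.47 on A01 and A02, and 5.63, 4.90 and 5.81 on B02, B03 and B04 (log2 change 1.87, adjusted p = 9.70e-07 from limma). EHF, an epithelial ETS factor, changed by 1.72. IL1A did not pass with the low-expression filter alone (adjusted p = 0.0819), while EHF did (adjusted p = 0.0245). NFKBIZ, which encodes the NF-kappaB cofactor needed for LCN2 induction, averaged 6.40 and, in MCF10.AT1-R, 6.71 (limma adjusted p = 0.838). IL1B, CEBPB, CEBPD, NFKB1 and the interleukin-17 receptor genes IL17RA and IL17RC had log2 changes of -0.14 to 0.28, and none passed. NFKB2 and RELB, genes of the noncanonical NF-kappaB pathway, did not pass either, with larger log2 changes of 0.81 (limma adjusted p = 0.295) and 0.77 (0.357) and arrays that separated between the lines. STAT3, a factor downstream of interleukin-6 type cytokines, also separated, with a log2 change of 0.54 (limma adjusted p = 0.696, and 0.0333 with the trend option). None of the 7 tested receptors and partners was called in limma, and none had an unadjusted p under 0.05. They include MMP9, the gelatinase that binds lipocalin-2, and TGM1 and TGM3, transglutaminases of the cornified layer.

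**Figure D4:**
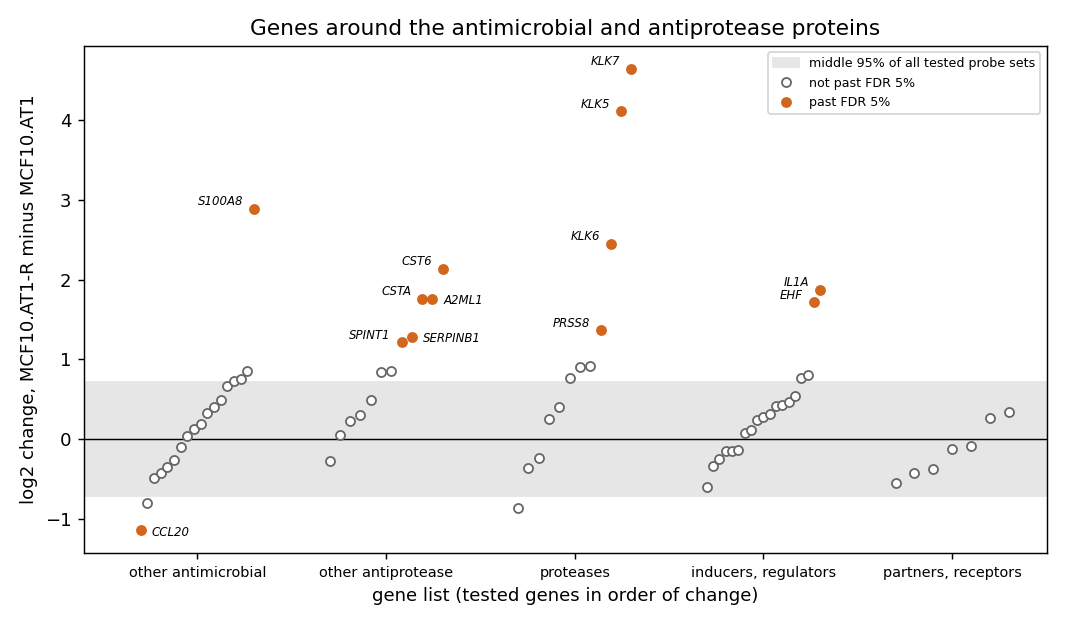
Log2 change, MCF10.AT1-R minus MCF10.AT1 (vertical axis), of the tested genes in 5 lists (horizontal axis), each point a gene in order of its change; filled points passed FDR 5% in limma and are named, and the grey band holds the middle 95% of all tested probe sets (-0.71 to 0.72). KLK7 at 4.64 is the highest point, CCL20 at -1.14 is the only filled point below 0, and the list of partners and receptors has none.

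Over the 5 arrays, the profile of LCN2 was most like those of IL1RN, SPRR2B and UCA1, by the Euclidean distance between centred log2 values (0.46, 0.51 and 0.59) among symbols outside the lists. IL1RN encodes the interleukin-1 receptor antagonist. It read 3.11 and 2.14 on A01 and A02, and 6.21, 5.44 and 6.04 on B02, B03 and B04. SPRR2B, a small proline-rich protein of the cornified envelope, changed by 3.31, and the long noncoding RNA UCA1 by 2.85. With 5 arrays such likeness follows mainly from a difference of similar size between the lines.

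Several of the 10 genes are also made by neutrophils, and others by keratinocytes and by milk-secreting cells, so markers of such cells were read beside them. Both lines are cultured epithelial cells, so the markers describe RNA of these cultures and are not a count of other cell types. In bulk RNA, a changed share of cells in a state and a changed level per cell cannot be told apart. Of 9 neutrophil and macrophage markers, CD14 alone was called, and it was lower. Their mean level lay between 3.16 and 3.53 in MCF10.AT1 and between 3.13 and 3.44 in MCF10.AT1-R. PTPRC, the pan-leukocyte marker, and FCGR3B were within the negative controls on all 5 arrays. The milk genes CSN2, CSN3 and LALBA did not rise above background on any of these arrays either. Of 5 fibroblast markers 2 were tested, and DCN alone was called, lower by a log2 change of -2.15. Of 3 endothelial markers 2 were tested, and PECAM1 alone was called, lower by -1.12. The median log2 change over all listed markers was -0.01 for fibroblasts and -0.19 for endothelium. Over all tested probe sets 0.447% were called lower.

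Several squamous and basal markers moved with the genes that rose. Of the 8 genes listed as basal markers, 7 were tested and 5 were called higher, against 0.758% of all tested probe sets. These were KRT5, KRT14, KRT17, TP63 and CDH1, and CDH1 is an epithelial cadherin gene not particular to basal cells. CDH3, EGFR and ITGA6, also in the list, were not called. The mean level of the list was 6.77 to 6.88 in MCF10.AT1 and 8.38 to 8.41 in MCF10.AT1-R. Of the 6 cornification markers 4 were tested, and KRT1, CDSN and IVL were called higher, while FLG was within the negative controls on all 5 arrays. The mean level of that list was 3.16 to 3.22 in MCF10.AT1, and 4.06 on B02 and 4.36 on B04, with B03 just below B02. KRT1 (adjusted p = 0.0966) and CDSN (0.199) did not pass in limma with the low-expression filter alone. IVL, the cornified envelope precursor involucrin, read 3.58 and 3.44 on A01 and A02, and 6.83, 6.27 and 7.13 on B02, B03 and B04. The part of these cell states in the rise of LCN2, PI3 and SLPI was not tested.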

How the data were processed

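Clariom D arrays measured total RNA of 3 samples each of the parental line MCF10.AT1 and its resistant derivative. The authors made the deposited log2 values by RMA over all 6 arrays with affy and oligo (versions not given in the sources used here). The 138745 rows include 2995 control probe sets, left out of the tests. The array names do not state the line. Letter A was read as MCF10.AT1 because the study removed A3 and its heat maps show 2 MCF10.AT1 and 3 MCF10.AT1-R samples, an inference that no label states. Probe sets with a mean above the median (1.88) and an SD above the lowest 25% (0.18) over 5 arrays were kept, 51457 in all, and fitted with lmFit and eBayes in limma 3.58.1 (R 4.3.3), with Benjamini-Hochberg adjustment and FDR 5%. The methods name a removal of low and invariant genes, and its limits were set here. The code was tested on simulated data, where this fit made more false calls than FDR 5% allows and the low-expression filter alone did not. Genes removed by the filter were taken from limma without it. The highest-mean probe set stood for each gene. The number of arrays limits precision. The genes and lists were chosen with earlier results of these data known. Named genes are the 10 genes, up to 4 called genes a list by size of change, genes needed as not called, and the 3 profiles nearest to LCN2. DEFB103B and RNASE4 were not matched to a symbol. PI3, SLPI, LYZ and DEFB1 sequences are not shown. Alternatives changed the arrays, weights, filters, variance model, normalization, background floor, probe sets and threshold.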

Additional observations from a re-analysis of the deposited data

Results flagged for a closer look

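Array A03 entered only the alternative fit over 6 arrays, and 2 of the 10 genes read above the 95th percentile of its own negative controls there: LTF at 3.41, 0.25 above it, and WFDC2 at 3.30, 0.15 above it. No group of arrays was large enough for a search for single outlying arrays.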

How the results depend on the processing

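Over 19 alternative settings, 159 refitted changes of the 10 genes kept their direction and their side of the threshold, 3 came to pass it, 2 no longer passed and 2 turned their sign. LCN2 passed in all 17 refits that give a gene's change, with log2 changes from 2.84 to 3.43, and PI3 and SLPI in 16. Averaging the probe sets of a symbol, or taking any of them, could not move these log2 changes, since each of the 10 genes has 1 probe set. With A03 added back, 1 of the 10 genes was called higher. Leaving out 1 array gave 3 to 4 called higher, RNASE7 joining without B03, and 0 to 0 lower. WFDC2 was added by the trend option, by FDR 10% and by the trend option when only low expression was filtered. The change of LTF, within background, turned to 0.37 without A01 and 0.19 without B04, and lay between -0.39 and 0.37 over arrays left out. With values raised to the floor DEFB1, LYZ, CAMP and SPINK5 had no spread and gave no value. For the related lists, the alternatives and the combined low-expression filter and trend option were chosen after seeing the data. There 12 genes were called higher, 1 (KLK7) with A03, 7 with the low-expression filter alone, 7 without a filter, 9 with the floor (S100A8, A2ML1, PRSS8 and IL1A no longer passed, and SPINT2 did) and 9 to 12 with 1 array left out. The 1 gene called lower, CCL20, gave 0 with A03, 0 with the low-expression filter alone, 0 without a filter, 0 with the floor, 0 at FDR 1%, and 0 to 1 with 1 array left out. With the trend option 18 were called higher. Without A01 or A02, the spread comes from the resistant arrays and is taken to hold for the single MCF10.AT1 array. No paired analysis was possible because the numbers in the array names could not be tied to the replicate numbers of the labels.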
